A study of Sus scrofa with 59 samples.

Results

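Longissimus dorsi muscles with the highest and the lowest SPP1 values were compared, 20 against 20 of 59 arrays, and the 19 arrays between them were left out of the comparison. Arrays were ranked by the only probe set annotated with SPP1 as its single symbol, using the deposited log2 value. A probe set is a set of short probes for 1 transcript. The groups were thus chosen by a measured value, that of SPP1, and are not groups of the study. All 59 pigs came from a cross named LD/LW x Duroc in the labels, were fed without restriction and were 170 days old at sampling. Each pig gave 1 array of RNA from muscle frozen in liquid nitrogen at slaughter. The SPP1-high and SPP1-low pigs share breed, age, farm and tissue as far as the labels say, and the sex and trait values of single pigs are not used here. The study related expression soon after slaughter to carcass and meat traits, whereas the present comparison asks which other genes differ between muscles with much and with little SPP1 RNA.

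SPP1 encodes osteopontin, a secreted phosphoprotein of bone matrix that immune cells also make. It binds integrins and CD44 on other cells, and in injured muscle of mice it is made by infiltrating macrophages and by muscle precursor cells. GPNMB, a transmembrane glycoprotein of phagocytes, is a further gene known from the same kind of macrophage. Bulk muscle RNA mixes fibres with all other cells, so fewer cells of a type and less RNA per cell cannot be told apart.

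SPP1 values chose the groups and are given as a description, with no test. In the SPP1-high arrays the lowest value was 10.05, the median 11.58 and the highest 12.95 log2. In the SPP1-low arrays they were 4.35, 5.78 and 6.48 log2, and the middle arrays ran from 6.50 to 9.65 log2. The array just inside the SPP1-high group was that of pig 70 at 10.05 and the one just outside that of pig 34 at 9.65. At the lower limit the gap was smaller, with pig 2 at 6.48 inside the SPP1-low group and pig 11 at 6.50 outside it. The group means differed by 5.87 log2, which the ranking fixed.

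**Figure D1:**
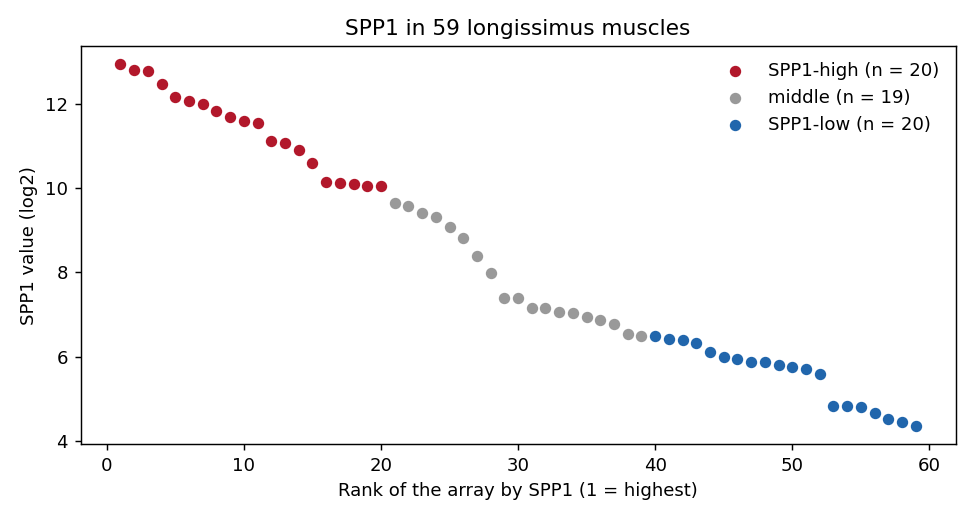
SPP1 value in log2 of each of the 59 arrays (vertical axis) against its rank (horizontal axis, 1 is the highest), coloured by group. The SPP1-high arrays lie between 10.05 and 12.95, the middle arrays between 6.50 and 9.65 and the SPP1-low arrays between 4.35 and 6.48, with a continuous run of values at the lower limit.

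Values of the table ran from 2.39 to 15.04 log2, and fibre genes were near the top in all pigs (MYH7, slow myosin, averaged 14.28 in SPP1-high and 14.27 in SPP1-low muscles). Among the arrays compared, those of pigs 5, 36, 37 and 52, all SPP1-high, stood apart. Their median correlation to the other arrays was as low as 0.940 (pig 36) and at most 0.960, against at least 0.967 for each other array compared. The array of pig 72, in the middle group and not compared, was at 0.960 as well. The Y-linked gene EIF1AY lay in separate clusters, and 8 of 20 SPP1-high and 11 of 20 SPP1-low arrays were in the upper one. The arrays of pigs 5, 36, 37 and 52 were all in the lower one. The 3′ minus 5′ difference of the control probe sets is a measure of RNA quality. Averaged over actin, GAPDH and EF1A, it had a median of 1.69 log2 in SPP1-high and 1.62 in SPP1-low arrays. In the same order the medians were 3.37 and 3.18 for actin, -0.09 and -0.11 for GAPDH and 1.78 and 1.79 for EF1A. All p-values measure the spread between pigs.

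More genes were higher than lower in SPP1-high muscles, led by metallothionein, chemokine and leukocyte genes. Of 11999 probe sets tested with limma, 319 passed at an adjusted p under 0.05 (2.66%), of which 247 were higher in SPP1-high muscles (2.06%) and 72 lower (0.6%). Leaving out 1 array at a time moved the total between 139 (without pig 52) and 834 (without pig 43), and the lower count between 19 and 282. Taking 1 probe set per gene, the brightest, 181 of 4927 genes passed (3.67%), of which 147 were higher (2.98%) and 34 lower (0.69%). The slope on SPP1 over all 59 arrays, which include the ranked ones, passed with a positive sign for 458 genes (9.3%) and with a negative sign for 190 (3.86%). The median difference over all genes was 0.00 log2, and the probe set annotated as SPP1 took no part. Without the 4 arrays that stood apart, 42 probe sets were higher and 2 lower, all of them among the 319. Within the upper EIF1AY cluster (8 SPP1-high and 11 SPP1-low arrays) no probe set passed with limma (255 at an unadjusted p under 0.05). Within the lower cluster (12 and 9 arrays), which held all 4 arrays that stood apart, 291 were higher and 96 lower.

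Macrophage and leukocyte genes were the list with the largest median difference of the 27 lists with a tested gene. Of its 15 tested genes 7 were higher and none lower, with a median difference of 0.53 log2, against 2.98% of all genes higher and a median of 0.00. LGALS3, which encodes galectin-3, a sugar-binding protein of macrophages, had a lowest, median and highest value of 8.44, 9.28 and 10.33 in SPP1-high muscles, against 7.70, 8.47 and 9.21 in SPP1-low muscles. In 18 of 20 SPP1-high muscles it was above the SPP1-low median, and the groups overlapped. Its difference was 0.85 ± 0.15 log2 (SE, limma adjusted p = 0.00203).

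CTSS, the lysosomal protease cathepsin S of antigen-presenting cells, ranged from 8.78 through a median of 10.32 to 11.28 in SPP1-high muscles, against 8.61, 9.33 and 10.53 in SPP1-low muscles. It was higher by 0.88 ± 0.18 (adjusted p = 0.0052), with 8 SPP1-high muscles above every SPP1-low one. TYROBP, the adaptor DAP12 that signals below receptors of myeloid cells, was at 7.11, 7.92 and 9.06 in SPP1-high muscles, against 6.71, 7.23 and 8.01 in SPP1-low muscles. It was higher by 0.69 ± 0.14 (adjusted p = 0.00502).

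The remaining 4 that rose were CYBA, a subunit of the phagocyte NADPH oxidase (0.45 ± 0.09), AIF1, an actin-binding protein of macrophages (0.63 ± 0.14), FCER1G, the gamma chain of Fc receptors (0.38 ± 0.09), and LAPTM5, a lysosomal protein of blood cells (0.60 ± 0.17). Receptors that mark resident macrophages missed the threshold, though their differences were positive. CD163, the scavenger receptor for haemoglobin, averaged 7.34 in SPP1-high and 6.81 in SPP1-low muscles (adjusted p = 0.0738), and MRC1, the mannose receptor, 7.52 and 7.08 (adjusted p = 0.117). Complement C1QC averaged 7.97 and 7.37 in the same order (adjusted p = 0.0689). CORO1A, an actin regulator of leukocytes, was the 1 member with a negative difference, at 7.53 in SPP1-high and 7.64 in SPP1-low muscles (adjusted p = 0.208). Without the 4 arrays that stood apart 4 of the 15 genes were higher, against 42 of all 11999 probe sets. Within the lower EIF1AY cluster 8 were higher, against 291 of all 11999. Within the upper cluster 0 were, but no probe set on the array passed there, so that count says nothing about this list.

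The mean of the 15 genes showed how far single pigs departed from the group pattern. It ran from 7.0026 through a median of 7.82 to 8.38 log2 in SPP1-high muscles, against 6.64, 7.23 and 7.9998 in SPP1-low muscles, so the groups overlapped. In 18 of 20 SPP1-high muscles it was above the SPP1-low median. Pig 68, with an SPP1 value of 10.06, had the lowest mean of its group, and pig 66, with an SPP1 value of 5.94, the highest of its own. Within the upper EIF1AY cluster the mean was 7.67 ± 0.42 in SPP1-high and 7.31 ± 0.39 in SPP1-low muscles (SD, n = 8 and 11). Within the lower cluster it was 7.81 ± 0.37 and 7.18 ± 0.36 in the same order (SD, n = 12 and 9).

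**Figure D2:**
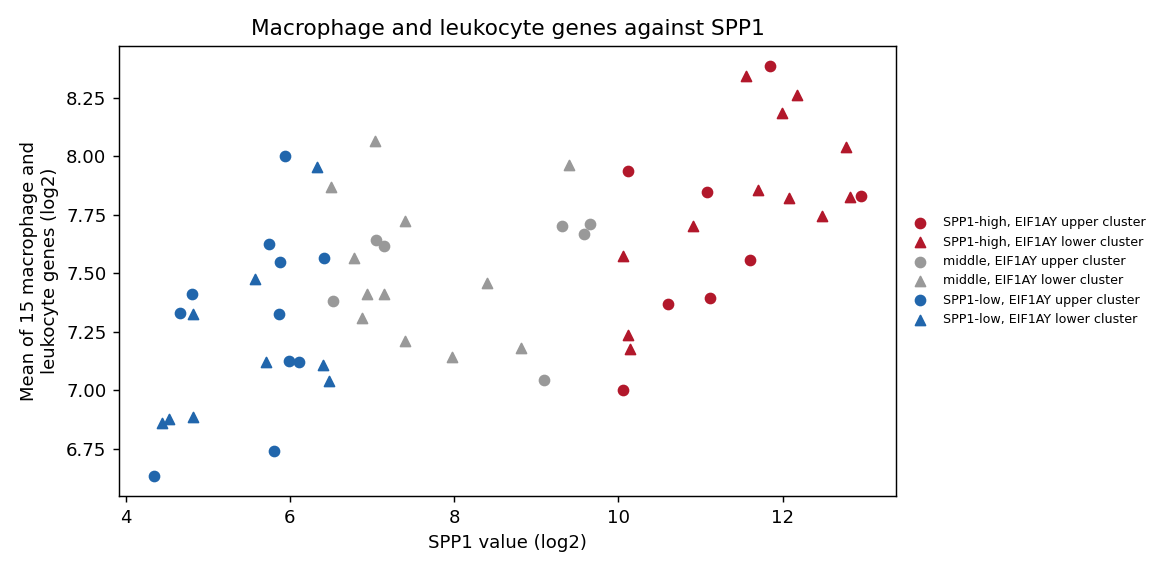
Mean log2 value of the 15 macrophage and leukocyte genes (vertical axis) against the SPP1 log2 value (horizontal axis) in all 59 arrays. Colours give the SPP1 group and symbols the EIF1AY cluster. SPP1-high arrays lie between 7.0026 and 8.38 and SPP1-low arrays between 6.64 and 7.9998, so the groups overlap.

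Some lysosomal protease and lipase genes were higher. Of 29 tested genes of the phagocyte lysosome and lipid handling list 6 were higher (20.7%, against 2.98% of all genes) and none lower, with a median difference of 0.13 log2. CTSH, the aminopeptidase cathepsin H, was at 7.66, 8.25 and 9.03 (lowest, median, highest) in SPP1-high muscles, against 7.24, 7.56 and 8.25 in SPP1-low muscles. All 20 SPP1-high muscles lay above the SPP1-low median, and the difference was 0.69 ± 0.11 (limma adjusted p = 0.00078). LIPA, the acid lipase that splits cholesteryl esters in lysosomes, was higher by 0.68 ± 0.14 (adjusted p = 0.00502) and CTSZ, the carboxypeptidase cathepsin Z, by 0.64 ± 0.12 (adjusted p = 0.00397). The protease genes CTSB (0.30 ± 0.07) and LGMN (0.42 ± 0.12) and the tetraspanin gene CD9 (0.43 ± 0.10) rose as well. CTSB did not pass without the 4 arrays that stood apart (0.23), and 3 of the 29 genes did, against 42 of all 11999 probe sets higher. Among lysosomal enzymes that did not pass, the protease CTSD averaged 10.00 in SPP1-high and 9.78 in SPP1-low muscles (adjusted p = 0.0887) and the hexosaminidase subunit HEXA 8.89 and 8.90. Lysosomal membrane genes did not pass either, with LAMP1 at 9.93 in SPP1-high and 9.90 in SPP1-low muscles and LAMP2 at 10.97 and 11.03.

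GPNMB did not pass. Its brightest probe set, the only 1 of 5 above the filter on dim probe sets, ran from 6.37 through a median of 7.64 to 9.59 in SPP1-high muscles, against 5.90, 6.59 and 9.40 in SPP1-low muscles. The difference was 0.63 ± 0.34 (limma adjusted p = 0.262), and although 18 of 20 SPP1-high muscles exceeded the SPP1-low median, 5 SPP1-low muscles exceeded the SPP1-high median. The other 4 probe sets had group means between 3.51 and 4.46 log2, near the bottom of the range. PLIN2, a lipid droplet coat protein, averaged 7.90 in SPP1-high and 7.10 in SPP1-low muscles and did not pass either (adjusted p = 0.0774). Apolipoprotein E (APOE) averaged 7.60 and 7.58 in the same order.

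MT-2B, a metallothionein gene, had the largest positive difference of the 147 genes. Metallothioneins bind zinc and copper and are induced by metals, glucocorticoids and inflammation. Its lowest, median and highest values were 8.06, 9.07 and 10.71 in SPP1-high muscles, against 7.25, 7.80 and 8.67 in SPP1-low muscles. Every SPP1-high muscle was above the SPP1-low median, and 14 were above every SPP1-low muscle. The difference was 1.27 ± 0.18 (limma adjusted p = 0.000114), and it was 1.28 and 1.26 within the upper and lower EIF1AY clusters (adjusted p = 0.0177 in the lower, not passed in the upper). Metallothionein genes are near-identical, so their probe sets may not tell them apart. HMOX1, the haem-degrading and stress-induced enzyme haem oxygenase 1, was higher by 0.67 ± 0.15 (limma adjusted p = 0.0141). It was the 1 of 5 iron and haem genes that passed (20%, against 2.98% of all genes). At 0.50 it did not pass without the 4 arrays that stood apart (limma adjusted p = 0.105). The ferritin chain genes did not pass, FTH1 at 13.15 in SPP1-high and 13.18 in SPP1-low muscles and FTL at 13.21 and 13.18.

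CCL2, the chemokine that draws monocytes into tissue, was at 6.69, 8.07 and 10.68 (lowest, median, highest) in SPP1-high muscles, against 6.20, 6.87 and 8.43 in SPP1-low muscles. It was higher by 1.22 ± 0.25 (limma adjusted p = 0.00514), and 9 SPP1-high muscles exceeded every SPP1-low one. CCL19, a chemokine for dendritic cells and T cells, was higher by 0.73 ± 0.19 (adjusted p = 0.033). These were the 2 that passed of 13 tested chemokine, cytokine and receptor genes (15.4%, against 2.98% of all genes), and 2 of the 13 had negative differences, which did not pass. The call of CCL19 ended without any 1 of pigs 36, 37, 42, 47, 49 and 52 (adjusted p up to 0.0594).

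TIMP1, an inhibitor of matrix metalloproteinases, was at 8.13, 8.88 and 11.05 in SPP1-high muscles, against 7.79, 8.08 and 9.02 in SPP1-low muscles. All 20 SPP1-high muscles were above the SPP1-low median, and the difference was 0.96 ± 0.18 (limma adjusted p = 0.00257). It was 0.63 without the 4 arrays that stood apart, and 0.47 and 1.34 within the upper and lower EIF1AY clusters. Those 4 arrays were all in the lower cluster, so these checks share arrays. VCAN, the large matrix proteoglycan versican, was higher by 0.60 ± 0.17 (adjusted p = 0.0414), a call that held in 22 of 40 fits that left out 1 array each and not without the 4 arrays that stood apart (0.40). These were the 2 of 23 tested extracellular matrix genes that passed (8.7%, against 2.98% of all genes), and the list had a median difference of 0.16 log2. Further matrix genes did not pass, with DCN (decorin) at 12.26 in SPP1-high and 12.25 in SPP1-low muscles and SPARC at 13.19 and 13.11.

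Other genes among the 15 with the largest positive differences were SRGN, which encodes the granule proteoglycan serglycin (1.17 ± 0.21, limma adjusted p = 0.00239), and CD53, a tetraspanin of leukocytes (0.99 ± 0.18, adjusted p = 0.00239). SRGN values were 7.34, 8.89 and 10.49 in SPP1-high muscles, against 6.63, 7.49 and 8.80 in SPP1-low muscles, with 12 SPP1-high muscles above every SPP1-low one. GMFG, a regulator of branched actin in blood cells, was higher by 0.85 ± 0.16, the redox enzyme glutaredoxin (GLRX) by 0.80 ± 0.17, the chloride channel protein CLIC1 by 0.79 ± 0.15 and the hexokinase gene HK1 by 0.76 ± 0.13. PHLDA2, a small protein with a pleckstrin homology domain, was higher by 0.74 ± 0.18 and RGS2, which damps G protein signals, by 0.72 ± 0.20. The RGS2 call held in 28 of 40 fits without 1 array. Among these 15, GLRX, PHLDA2, CCL19 and RGS2 did not pass without the 4 arrays that stood apart (0.54, 0.52, 0.50 and 0.48).

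**Figure D3:**
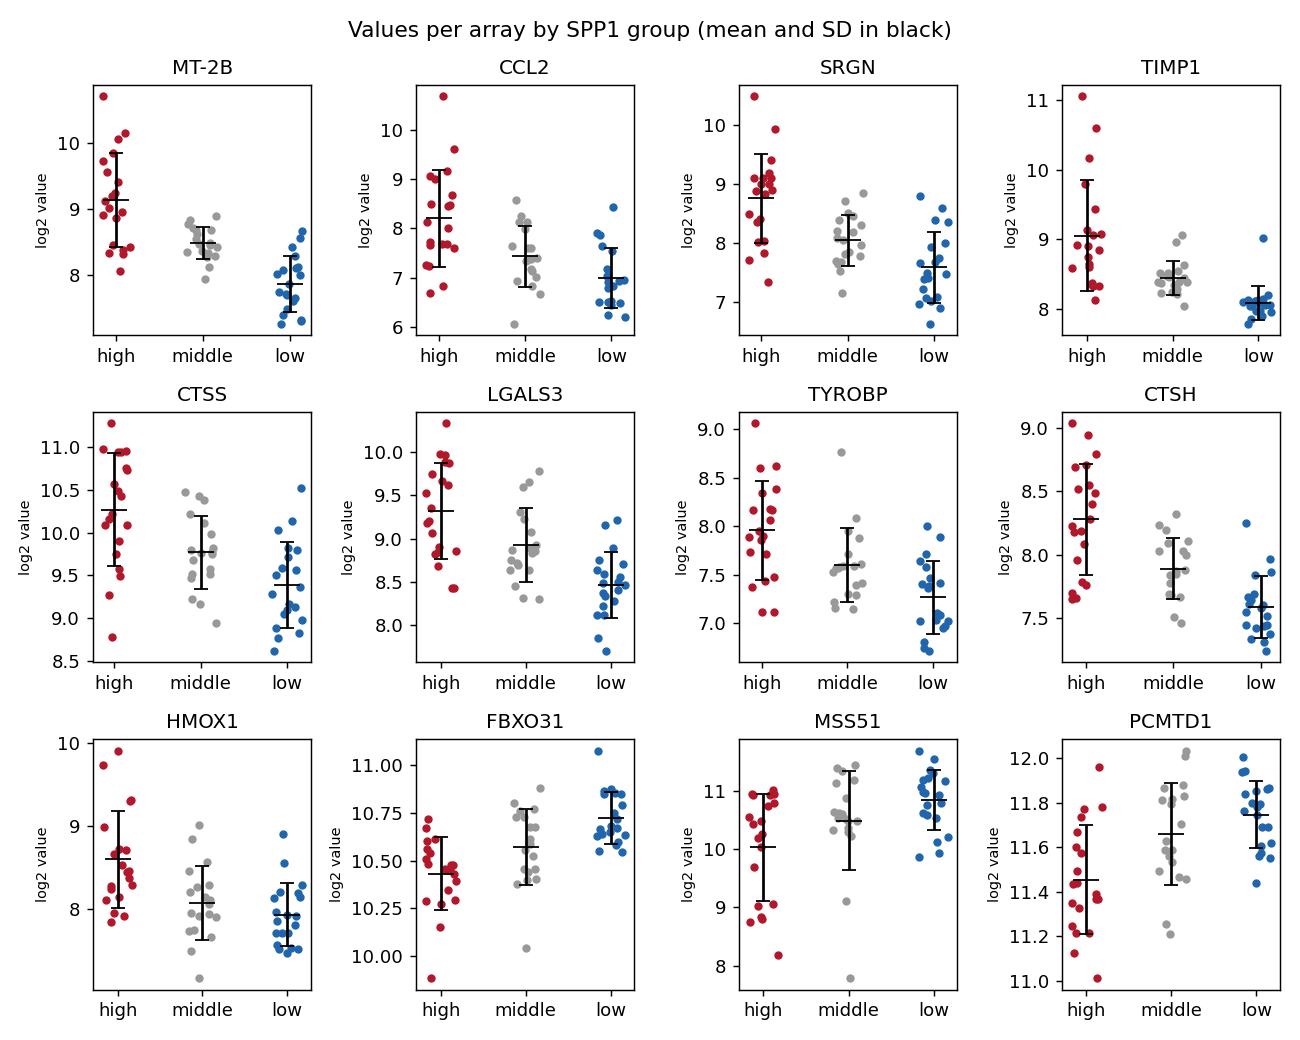
Log2 values of 12 genes in every array, by SPP1-high (n = 20), middle (n = 19) and SPP1-low (n = 20) group, with the mean and SD in black. The first 9 genes are higher and the last 3 lower in SPP1-high muscles, the groups overlap in each panel, and middle means lie between those of the other groups.

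The genes lower in SPP1-high muscles had smaller differences, from 0.23 to 0.81 log2 in size among the 15 largest. FBXO31, a substrate adaptor of a ubiquitin ligase, was at 9.89, 10.47 and 10.72 (lowest, median, highest) in SPP1-high muscles, against 10.54, 10.68 and 11.07 in SPP1-low muscles. In 15 SPP1-high muscles it was below every SPP1-low one, and it fell by 0.29 (SE 0.05, limma adjusted p = 0.00239). PCMTD1, a methyltransferase-like protein, fell by 0.29 (SE 0.06, adjusted p = 0.0104), RAD50, a DNA repair protein, by 0.28 (SE 0.06, adjusted p = 0.0172), and PFDN1, a subunit of the chaperone prefoldin, by 0.24 (SE 0.05, adjusted p = 0.0141). INO80C, part of a chromatin remodelling complex, and CIR1, a transcriptional corepressor, fell by 0.24 and 0.23. These 6 calls held in all 40 fits without 1 array.

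MSS51, a muscle gene whose product lies at mitochondria, had the largest fall by 0.81 (SE 0.23, adjusted p = 0.0429). Its values were 8.19, 10.35 and 11.02 in SPP1-high muscles, against 9.86, 10.95 and 11.70 in SPP1-low muscles, and 7 SPP1-high muscles were below every SPP1-low one. That call held in 19 of 40 fits without 1 array, and the difference was -0.47 without the 4 arrays that stood apart. PDE4C, a cAMP phosphodiesterase, fell by 0.51 and ACOX3, a peroxisomal acyl-CoA oxidase, by 0.44. PDE4C differed by -0.01 and -0.88 and ACOX3 by -0.10 and -0.72 within the upper and lower EIF1AY clusters. The lower cluster held the 4 arrays that stood apart. The PDE4C call held in 23 and the ACOX3 call in 16 of 40 fits without 1 array, and neither passed without the 4 arrays that stood apart (-0.31 and -0.40). FBXO3, CAP2, FAM8A1, TM7SF2, DCAF8 and CRYZ fell by 0.24 to 0.32. Of the 15 genes, FBXO31 alone passed without the 4 arrays that stood apart, and all 15 kept their sign there.

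Receptors of osteopontin showed no call. Of 11 listed genes the array held 6, and 4 of those were bright enough to test. Over all genes 2.98% were higher and 0.69% lower, so the lack of a call among so few does not set them apart. The integrin beta 3 gene ITGB3 averaged 6.45 in SPP1-high and 6.24 in SPP1-low muscles (0.21 ± 0.06, limma adjusted p = 0.0525), ITGB1 12.40 and 12.20 (adjusted p = 0.213), ITGB5 7.89 and 7.99 (0.338) and ITGAV 8.93 and 8.91 (0.897). None of 6 tested genes of mineralisation and matrix partners passed, again too few to set them apart from all genes. ENPP1, which makes pyrophosphate, was at 8.50 in SPP1-high and 8.16 in SPP1-low muscles (limma adjusted p = 0.0675). The calcification inhibitor MGP was at 12.45 and 12.18 (0.114).

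Interferon and antigen presentation genes gave a single call. Of 17 interferon response genes 1 was higher (5.88%, against 2.98% of all genes). It was IFI30, a lysosomal thiol reductase that helps antigen processing (0.67 ± 0.13, limma adjusted p = 0.00502). The chemokine CXCL9 averaged 7.61 in SPP1-high and 7.03 in SPP1-low muscles with an SE of the difference of 0.54 (adjusted p = 0.535), and GBP1 8.79 and 8.35 with an SE of 0.49 (adjusted p = 0.611). None of 14 MHC class II and antigen presentation genes passed, where 2.98% of all genes were higher and 0.69% lower. All 14 differences were positive (median 0.18 log2, highest 0.35 for CD83), against 2512 of all 4927 genes. None of 8 complement genes passed either, and the lack of a call in lists this small is near the share of all genes. The complement list had a median of 0.40 log2. C1S was at 10.19 in SPP1-high and 9.74 in SPP1-low muscles (limma adjusted p = 0.0693) and CD46 at 9.56 and 8.99 (0.0689).

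Markers of other cell types gave few calls. Only 3 lymphocyte genes were bright enough to test, and none passed (CCL5, GNLY and JCHAIN, differences from -0.02 to 0.11 log2), while no neutrophil or mast cell gene was. Among 6 adipocyte genes 1 passed (16.7%, against 2.98% of all genes). FABP4, a fatty acid binding protein also found in macrophages and endothelium, was higher by 0.51 ± 0.11 (limma adjusted p = 0.0108). The difference was 0.22 and 0.83 within the upper and lower EIF1AY clusters. It was 0.50 without the 4 arrays that stood apart, all of the lower cluster (limma adjusted p = 0.051). The other adipocyte genes differed by -0.18 to 0.09 log2 and did not pass, CFD (adipsin) being at 9.81 in SPP1-high and 9.82 in SPP1-low muscles. No call came from 12 endothelial genes, from 9 genes of pericytes and smooth muscle, or from 4 genes of nerve. With 2.98% of all genes higher and 0.69% lower, the lack of a call in lists this small does not set them apart. The blood marker HBB averaged 8.95 in both groups (difference -0.00 log2).

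The lists of contractile and metabolic genes gave 1 call. None of 9 fast fibre, 25 oxidative phosphorylation, 25 fatty acid oxidation and 13 glycolysis genes passed, and their medians lay between -0.04 and -0.00 log2. Over all genes 2.98% were higher and 0.69% lower, so the lack of a call in a single list is near that share. Of 25 oxidative phosphorylation genes 21 had a negative difference, none beyond -0.18, against 2412 negative differences among all 4927 genes. In the slow fibre list 1 of 10 genes passed (10%, against 2.98% of all genes) and the other 9 did not. TPM3, a tropomyosin gene that also makes a cytoskeletal form outside fibres, was higher by 0.44 ± 0.10 (limma adjusted p = 0.0192). The lowest and highest differences of its other tested probe sets were -0.01 and 0.37 log2. Of 16 genes of regenerating and denervated fibres 1 passed (6.25%). It was the intermediate filament gene VIM (0.38 ± 0.10, limma adjusted p = 0.0284), which did not pass without pig 52 (0.0528). Of 43 ribosomal protein genes 1 was higher (2.33%, near the 2.98% of all genes). It was RPL3 (0.41 ± 0.09, limma adjusted p = 0.0104). Without the 4 arrays that stood apart TPM3 (0.34), VIM (0.27) and RPL3 (0.29) did not pass. No gene of the cell cycle list (8 tested) or the proteolysis and atrophy list (13 tested) passed, which is near the share of all genes.

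The heat shock and immediate early lists gave 1 call. Of 27 heat shock genes 25 had positive differences, against 2512 of all 4927 genes, and the list median was 0.21 log2. HSPA5, the chaperone BiP of the endoplasmic reticulum, alone passed (3.7%, near the 2.98% of all genes). Its difference was 0.37 ± 0.10 (limma adjusted p = 0.0402). The HSPA5 call held in 22 of 40 fits without 1 array and not without the 4 arrays that stood apart (0.20). HSPA6 averaged 8.84 in SPP1-high and 7.83 in SPP1-low muscles with an SE of the difference of 0.41 (adjusted p = 0.135). Of 17 immediate early genes none passed (against 2.98% of all genes higher), with a median of 0.28 log2. MYC was at 7.86 in SPP1-high and 7.08 in SPP1-low muscles (limma adjusted p = 0.0693). Pigs 5, 36, 37 and 52 had heat shock scores, the mean of standardised values over the list in SD over the arrays, of 1.48, 2.81, 1.22 and 1.11. The other SPP1-high pigs above 1.11 were 32, 48, 58 and 74, at 1.74, 1.61, 1.40 and 1.26, and their arrays did not stand apart. The group medians of that score were 0.51 in SPP1-high and -0.27 in SPP1-low arrays. With the immediate early and heat shock scores as covariates 38 probe sets were higher and 4 lower. On the first principal component pigs 5, 36, 37 and 52 were at 33.3, 38.6, 35.0 and 31.0. Pigs 32, 48, 58 and 74 were at 24.7, 22.0, 11.0 and 14.5. Why the 4 arrays stood apart was not tested.

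**Figure D4:**
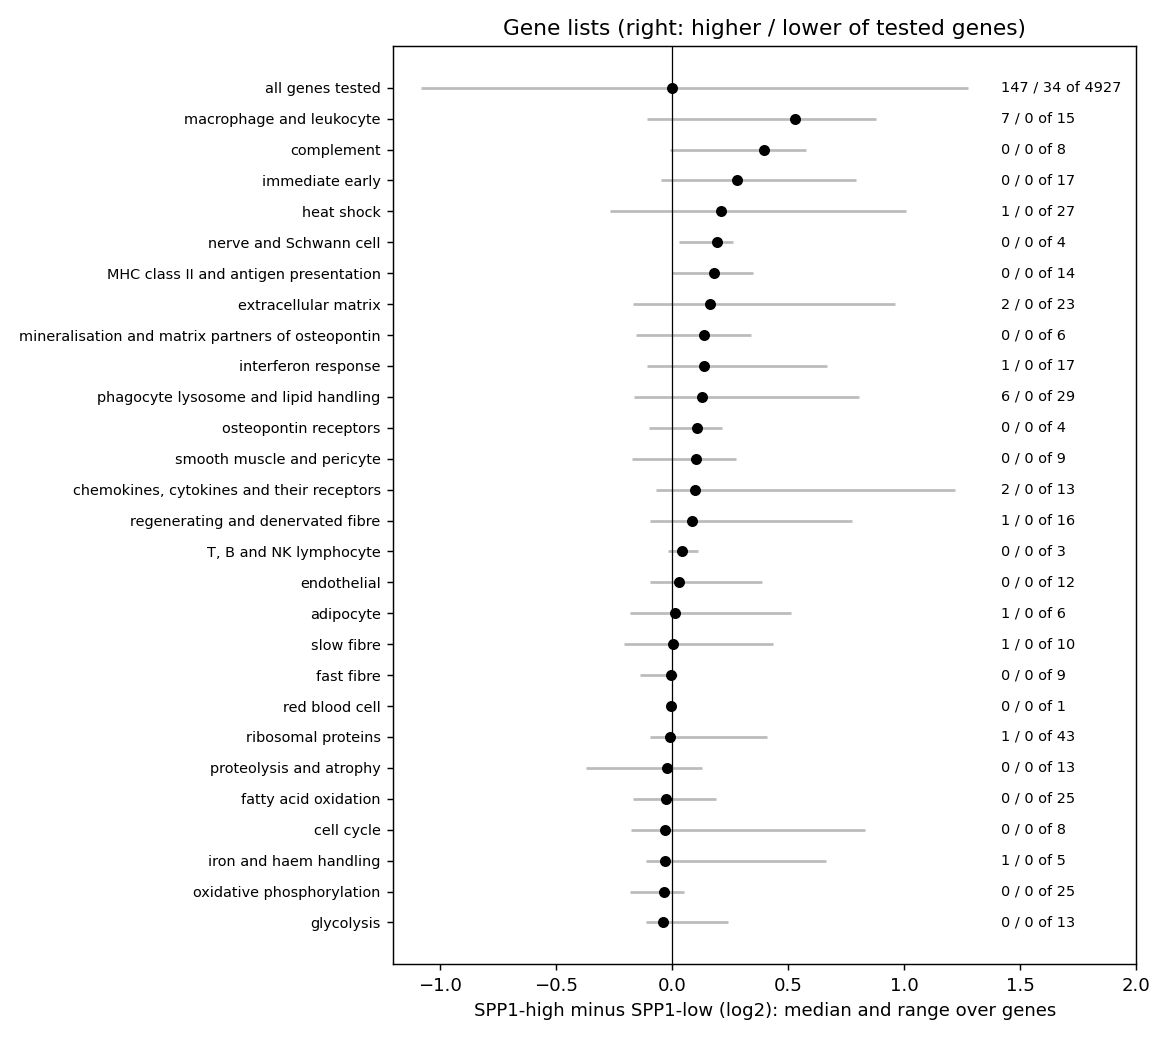
SPP1-high minus SPP1-low difference in log2 (horizontal axis) for 27 gene lists and all tested genes. Points are medians over the tested genes of a list, lines run from the lowest to the highest gene, and the numbers at the right are genes higher, lower and tested. Macrophage and leukocyte genes have the largest median (0.53), and the median of all genes is 0.00.

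Adding the macrophage and leukocyte score as a covariate asked how much of each difference went with that score. No probe set then passed with limma (1161 at an unadjusted p under 0.05, 197 of them among the 319), and 318 of the 319 kept their sign. The score is itself part of the difference between the groups, and its part in the result was not tested otherwise. MT-2B was still 0.98 ± 0.20 higher (adjusted p = 0.0875), against 1.27 without the covariate. CLIC1 was at 0.67 ± 0.17, TIMP1 at 0.67 ± 0.20 and HMOX1 at 0.56 ± 0.18. TYROBP, a member of the score, was at 0.16 ± 0.07 and CTSS, another, at 0.20 ± 0.10, while LGALS3, also a member, was at 0.56 ± 0.15. With the interferon response score as the covariate 372 probe sets were higher and 160 lower.

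The 19 middle arrays were used by neither group. Within them the slope on SPP1 had the same sign as the group difference for 189 of the 319 probe sets (59.2%), against 6235 of all 11999 (52%). For the 247 higher ones it was 151 (61.1%) and for the 72 lower ones 38 (52.8%). No slope passed within these 19 arrays with limma, and 337 of 11999 had an unadjusted p under 0.05, 14 of them among the 319. The middle mean lay between the group means for all 43 genes that the naming rule chose and that passed, as for MT-2B with 9.13 in SPP1-high, 8.48 in middle and 7.86 in SPP1-low muscles. Within the middle arrays the slope of MT-2B was nevertheless negative (-0.05 log2 per log2 of SPP1), as was that of CCL2 (-0.19). The same held for 301 of the 319 probe sets (94.4%), against 5419 of all 11999 (45.2%). For genes chosen for a large difference, a middle mean between the groups is partly set by the choice. The naming rule for the largest differences also used the slope over all 59 arrays, these 19 among them. The middle means of genes named that way are therefore a description and no separate check.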

How the data were processed

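Biotin-labelled cRNA from 59 pigs was hybridised to an Affymetrix porcine array, each pig on its own array (per the labels' protocols). The deposited table holds normalised values read as log2. The authors used GCRMA per the submitters' processing notes (a method of background correction, quantile normalisation and probe summary). Its version and the log base are not given in the sources used here, and the method can compress differences of dim and of very bright genes. Of 24123 probe sets 124 were controls. A platform annotation gave 1 symbol for 10099, several for 198 and none for 13826, and symbols were updated by Entrez identifier for 9989. Only probe sets with 1 symbol are named. Those with a mean of at least 6.27 log2, the median of all means, were tested, except that of SPP1. A gene is given by its brightest tested probe set.

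The groups were compared with limma 3.58.1 in R 4.3.3 (lmFit, eBayes), with Benjamini-Hochberg adjustment over all 11999 probe sets and a threshold of 0.05. The code was tested on simulated data. Named genes are the 15 called genes with the largest differences in each direction whose slope over 59 arrays had equal sign and unadjusted p below 0.05, and up to 6 members of each of 28 gene lists (372 of 699 genes tested), 3 by p and 3 by brightness. Members and lists were chosen with earlier results of these data known. Other members named were chosen after their values were seen. No arrays held identical values, and the number of arrays limits the precision. No sequences or genome positions were used here.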

Additional observations from a re-analysis of the deposited data

How the results depend on the processing

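With the settings of the comparison 319 probe sets passed, 247 higher and 72 lower. The counts were 186, 128 and 58 among the 6000 brightest probe sets, 1365, 868 and 497 for the slope over all 59 arrays, 677, 460 and 217 for the 15 highest against the 15 lowest, and 123, 88 and 35 for 29 against 29. With the interferon score as covariate they were 532, 372 and 160, with EIF1AY 142, 126 and 16, and with the immediate early and heat shock scores, or with the first principal component, 42, 38 and 4 each. With the macrophage score they were 0, 0 and 0 (limma, 1161 at an unadjusted p under 0.05). Repeated quantile normalisation left 229 higher and raised the lower ones to 138. Counts without the filter (274), with re-centred arrays (307), with the 3′ to 5′ covariate (278) and with a robust trend (318) stayed within 1.5 times, and the direction of the 319 held in each of these 4. The probe sets that passed were partly others, as 195, 299, 233 and 316 of the 319 still passed in the same order.

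Alternatives chosen after seeing the data were leaving out pigs 5, 36, 37 and 52 together (44 passed, 42 higher and 2 lower), the upper EIF1AY cluster alone (0, 0 and 0, with 255 at an unadjusted p under 0.05) and the lower alone (387, 291 and 96). Leaving out 1 array at a time gave 139 to 834 in all, 120 to 552 higher and 19 to 282 lower. The total moved by over 1.5 times without any 1 of pigs 5, 9, 31, 36, 37, 42, 46, 47, 49, 52, 54, 67 and 74 (139 to 197) or of pigs 1, 19, 43 and 68 (494 to 834). Of 28 named higher genes 23 passed in all 40 such fits, and of 15 named lower genes 6 did. DCAF8 lost its call without pig 37, 49 or 74, and TM7SF2 without pig 5, 36, 37, 42, 47, 49 or 52. FBXO3 held in 15 of 40, FAM8A1 in 14, ACOX3 in 16, CAP2 in 20, CRYZ in 22 and PDE4C in 23. None of the 43 named genes that passed changed sign in any of these alternatives, whereas named genes that did not pass could, such as HBB (-0.00, and 0.05 in the lower EIF1AY cluster). The share of equal slopes in the middle arrays was 56.9 to 61.6% under 3 other processings. No other probe set was annotated with SPP1 as its single symbol, so ranking by another was not run. No paired analysis was possible because all pigs form 1 labelled group. The causes of these shifts were not tested, and some settings also had fewer arrays or probe sets.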

Other observations

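Genes outside the lists were also higher in SPP1-high muscles, and those named here were chosen after their values were seen, so they carry no test as groups. ARPC1B, a subunit of the complex that branches actin filaments, was higher by 0.61 ± 0.12 log2 (SE, limma adjusted p = 0.00502), its partner subunits ACTR3 by 0.46 ± 0.10 and ARPC5 by 0.44 ± 0.10, the filament capping protein CAPG by 0.67 ± 0.14 and cofilin (CFL1) by 0.36 ± 0.09. The annexins ANXA1, ANXA2 and ANXA5, which bind membranes with calcium, were higher by 0.53 ± 0.13, 0.61 ± 0.13 and 0.32 ± 0.08. S100A11 and S100A10, small calcium-binding family partners of annexins, were higher by 0.69 ± 0.14 and 0.52 ± 0.13. CALR and CANX, lectin chaperones of the endoplasmic reticulum, were higher by 0.30 ± 0.07 and 0.23 ± 0.07, the disulphide isomerases PDIA3 and PDIA6 by 0.31 ± 0.08 and 0.28 ± 0.08, and the transcription factor XBP1 by 0.32 ± 0.08.

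PLAU, the urokinase protease, was higher by 0.69 ± 0.16 (limma adjusted p = 0.0168) and SERPINE2, an inhibitor of serine proteases, by 0.68 ± 0.16. The lipopolysaccharide co-receptor LY96 (0.62 ± 0.17), the TNF receptor TNFRSF1B (0.44 ± 0.10), the interleukin receptor IL4R (0.38 ± 0.11) and the transcription factor STAT3 (0.46 ± 0.13) were higher too. The glucose carrier SLC2A3 (0.56 ± 0.14), the cationic amino acid carrier SLC7A1 (0.62 ± 0.16) and thioredoxin (TXN, 0.35 ± 0.07) also rose. Lower were BCKDHB, a subunit of the branched-chain ketoacid dehydrogenase (-0.22 ± 0.06), the DNA glycosylase NEIL1 (-0.18 ± 0.05), DNA polymerase lambda (POLL, -0.20 ± 0.05) and the histone acetyltransferase KAT8 (-0.17 ± 0.04).

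The difference of the contrast between the EIF1AY clusters was fitted as an interaction. No probe set passed with limma, and 902 of 11999 (7.52%) had an unadjusted p under 0.05, among them 116 of the 319 (36.4%). For 304 of the 319 the interaction pointed to a smaller difference in the upper cluster. The 4 arrays that stood apart were all in the lower cluster, and the interaction was not fitted without them. SPP1 itself differed between the groups by 5.57 log2 in the upper and 6.11 in the lower cluster.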
